A study of Mus musculus with 6 samples.

Results

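The genes described here are 6 microglial receptors and 1 enzyme that handle extracellular nucleotides and a related lipid signal. They are P2ry12, P2ry13, P2ry6, Gpr34, Entpd1, P2rx4 and P2rx7, taken by symbol from a table of 11881 genes. All 7 were measured, and all 7 passed the filter on low counts that left 10832 genes for testing. RNA was sequenced from microglia, the resident macrophages of the brain, sorted as CD11b+ CD45low cells from the hippocampus of male mice aged between postnatal days 17 and 21. There were 3 libraries labelled Mll5+/-, from mice with 1 disrupted copy of Mll5 (Kmt2e, which encodes a protein of the MLL family), and 3 libraries labelled WT, from wild-type mice. Each library is named for a different mouse and was taken as 1 animal. The sources used here do not say how the Mll5 allele was disrupted, nor the strain of the mice. The genes were chosen by their function and with earlier results of these data known, among them their levels in both genotypes. Their values and test results are therefore given as a description of these libraries, and nothing is read from how many of them passed a test.

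Cells that are damaged or active release ATP and UTP, which enzymes on cell surfaces break down to ADP, UDP, AMP and adenosine. Microglia read these nucleotides with G-protein-coupled P2Y receptors and with P2X receptors, which are ion channels opened by ATP. P2Y12 answers to ADP and directs the extension of microglial processes toward a source of nucleotides, P2Y6 answers to UDP and promotes phagocytosis, and CD39, the product of Entpd1, removes ATP and ADP. GPR34 belongs to the same receptor branch as P2Y12 and P2Y13 by sequence and answers to lysophosphatidylserine rather than to nucleotides.

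P2ry12 and P2ry13 are neighbours on mouse chromosome 3. In the deposited coordinates (mm39), P2ry13 lies from 59115313 to 59118303 and P2ry12 from 59123693 to 59170292, with 5.39 kb between them. Both spans lie inside that of Med12l, a Mediator subunit gene, from 58913246 to 59226103. Their promoters are shown because the pair share a locus, and any link between these sequences and the levels given below was not tested. Each window is 300 bases, from 250 before to 50 after the start of transcription, on the minus strand, from RefSeq on GRCm38.p6 (P2ry12 at chr3:59262936-59263235, P2ry13 at chr3:59210833-59211132). Capitals mark GAGGAA, 1 form of the site bound by PU.1, a transcription factor of macrophages and microglia. Other forms of this site were not searched for or marked.
P2ry12: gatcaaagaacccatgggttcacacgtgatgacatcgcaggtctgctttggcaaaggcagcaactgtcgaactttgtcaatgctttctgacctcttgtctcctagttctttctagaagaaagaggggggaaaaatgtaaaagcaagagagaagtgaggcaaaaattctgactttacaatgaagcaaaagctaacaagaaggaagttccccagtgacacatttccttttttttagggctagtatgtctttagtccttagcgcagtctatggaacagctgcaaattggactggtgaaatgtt
P2ry13: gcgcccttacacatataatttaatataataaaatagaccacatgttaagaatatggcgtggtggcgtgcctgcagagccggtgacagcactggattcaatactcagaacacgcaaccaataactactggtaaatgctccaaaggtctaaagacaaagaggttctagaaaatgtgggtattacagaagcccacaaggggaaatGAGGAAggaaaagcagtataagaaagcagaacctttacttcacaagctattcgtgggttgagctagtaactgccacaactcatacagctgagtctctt

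The windows of P2ry12 and P2ry13 each held 42.3% G and C, against a median of 52.7% over all 32851 promoter windows of this length. GAGGAA, searched on both strands, occurred 1 time in the window of P2ry13, at position 203, and was not found in that of P2ry12. It occurred in 28.3% of all promoter windows. A pair of other motifs, that of IRF factors (GAAA, any 2 bases, GAAA; in 3.44% of all windows) and TGANTCA for AP-1 (7.81%), occurred in neither window, and neither overlaps a match of GAGGAA there. Of the 7 genes, 5 had at least 1 window in the RefSeq table, with 7 windows in all; Gpr34 and P2ry6 had none. GAGGAA was also found in both windows of P2rx7 and in 1 of those of Entpd1, but not in that of P2rx4. These matches describe letters in a window, not bound sites.

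The libraries held between 21075570 and 29730400 counts, so that 3 counts were 0.104 to 0.142 CPM. CPM are a gene's counts per 1000000 of its library, scaled here by TMM factors. Counts of Kmt2e did not show the loss of 1 copy: the gene had 648, 298 and 513 CPM in libraries labelled Mll5+/- against 480, 378 and 688 CPM in those labelled WT, with a log2 fold change of -0.08 and a 95% interval from -0.79 to 0.63. Genotypes are therefore named as labelled, and each direction below rests on the labels. The microglial markers Tmem119, Cx3cr1 and Csf1r were abundant in all 6 libraries, at no less than 197 CPM. The summed level of 18 microglial identity genes did not overlap between genotypes, at 24620 to 30102 CPM in libraries labelled Mll5+/- and 30880 to 34391 CPM in those labelled WT. Without Sparc, the most abundant of them, the sums overlapped, at 16226 to 19999 CPM and 18692 to 23724 CPM. Markers of border-associated macrophages, of which 7 of 10 were measured here, summed to 369 to 695 CPM in libraries labelled Mll5+/- and to 267 to 328 CPM in those labelled WT. Most of this was Stab1 and Mrc1, while Cd163, Folr2 and Ms4a7 were at no more than 5.25 CPM in any library. Stab1 and Mrc1 each overlapped between genotypes. Without Stab1 the sums overlapped as well, at 88.5 to 207 CPM in libraries labelled Mll5+/- and 83.0 to 128 CPM in those labelled WT. The part of these shifts in the levels below was not tested.

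P2ry12 and Gpr34 were lower in all 3 libraries labelled Mll5+/- than in any library labelled WT, and the other 5 genes overlapped between the genotypes. Of all 10832 genes tested, 9.32% did not overlap, 4.64% lower and 4.68% higher in libraries labelled Mll5+/-. P2ry12, the ADP receptor of process extension, had 1115, 1232 and 1087 CPM in libraries labelled Mll5+/- and 4269, 1366 and 5499 CPM in those labelled WT. Its 3 libraries labelled Mll5+/- lay close together, while those labelled WT were split, with replicate 2 just above the highest library labelled Mll5+/- and replicates 1 and 3 far above. The means were 1145 ± 76.9 and 3712 ± 2122 CPM (SD, n = 3 each), a ratio of 0.308. The highest value labelled Mll5+/- was 0.902 times the lowest value labelled WT. The fitted log2 fold change, Mll5+/- over WT, was -1.70 (SE 0.474), with a 95% interval from -2.84 to -0.56. This SE and interval take the relative spread as the same in both genotypes, which P2ry12 did not show, so they may be too narrow. In bulk RNA, fewer cells that express a gene and less of its RNA per cell cannot be told apart.

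The spread of P2ry12 among the libraries labelled WT was wide for a gene of its abundance. The SD of its log2 level was 0.10 over the libraries labelled Mll5+/- and 1.07 over those labelled WT. Over the 138 tested genes with a mean of at least 1000 CPM, the median SDs were 0.23 and 0.17, and 7 genes, P2ry12 counted in, had an SD as large as that of P2ry12 or larger among the libraries labelled WT. Leaving out WT replicate 2 moved its log2 fold change to -2.11, leaving out WT replicate 3 moved it to -1.30, and leaving out WT replicate 1 moved it to -1.60. A table of counts does not show whether the split lies in P2ry12 RNA or in how its reads were counted in each library, and this was not tested.

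**Figure D1:**
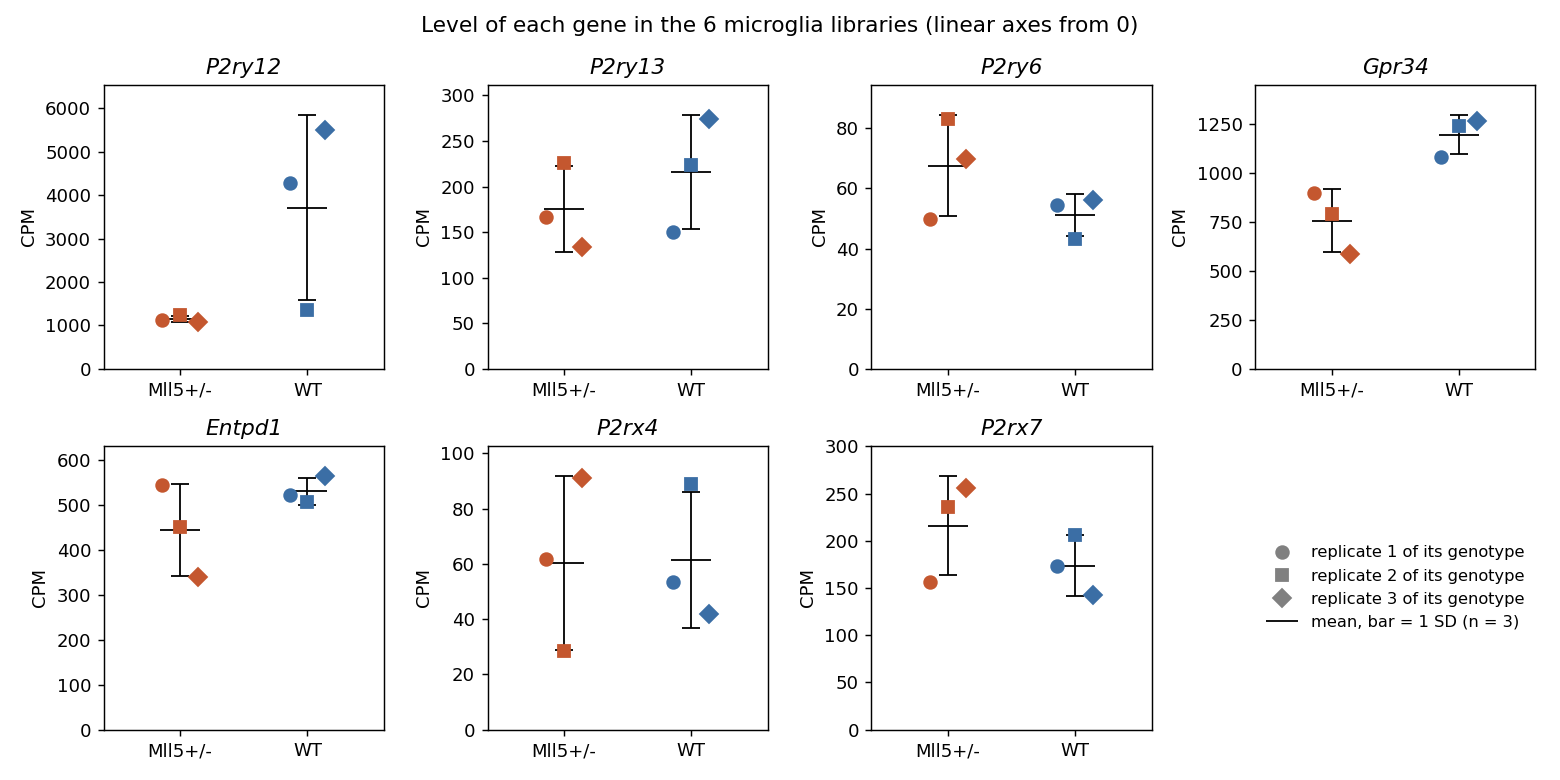
Level of each of the 7 genes in CPM (linear axes from 0) in the 3 libraries labelled Mll5+/- (left, orange) and the 3 labelled WT (right, blue). Symbols give the replicate number within a genotype, lines the mean and bars 1 SD. For P2ry12, the libraries labelled Mll5+/- sit between 1087 and 1232 CPM and those labelled WT at 4269, 1366 and 5499 CPM, and Gpr34 is the other gene without overlap.

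P2ry13 encodes a second ADP receptor, coupled like P2Y12 to Gi proteins. It had 167, 226 and 133 CPM in libraries labelled Mll5+/- and 149.8, 223 and 274 CPM in those labelled WT. The genotypes overlapped, and WT replicate 1, in which P2ry12 was at 4269 CPM, was the second lowest of the 6 libraries for P2ry13. The means were 175 ± 46.8 and 216 ± 62.3 CPM (SD, n = 3 each), with a log2 fold change of -0.30 (SE 0.290, 95% interval -0.96 to 0.36). Within each library, P2ry12 counts were 6.69, 5.45 and 8.14 times those of P2ry13 in libraries labelled Mll5+/- and 28.5, 6.12 and 20.1 times in those labelled WT. The ratio of these adjacent ADP receptors was higher in WT replicates 1 and 3 than in the other 4 libraries.

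Med12l, whose span holds both ADP receptor genes, overlapped between the genotypes. It had 618, 532 and 433 CPM in libraries labelled Mll5+/- and 607, 592 and 501 CPM in those labelled WT, and edgeR gave -0.10 on the log2 scale (SE 0.188, unadjusted p = 0.597, adjusted p = 0.9995). In the GENCODE M21 annotation (GRCm38), Med12l runs on the opposite strand and its exons share 0 bases with those of P2ry12 or P2ry13. P2ry12 counts were 1.80, 2.31 and 2.51 times those of Med12l in libraries labelled Mll5+/- and 7.03, 2.31 and 11.0 times in those labelled WT. No source used here gives the strand setting of the counts; without strand, reads from Med12l introns that fall on the exons of P2ry12 or P2ry13 cannot be told apart from reads of these genes. On the other side of P2ry12, the next gene was Igsf10, with 2.25, 0.492 and 0.803 CPM in libraries labelled Mll5+/- and 4.01, 37.9 and 11.1 CPM in those labelled WT. Its highest library was WT replicate 2, the lowest library labelled WT for P2ry12. Igsf10 gave a log2 fold change of -3.90 (SE 1.06) and an adjusted p of 0.9995 in edgeR (unadjusted p = 0.00538) and 0.0460 in DESeq2.

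**Figure D2:**
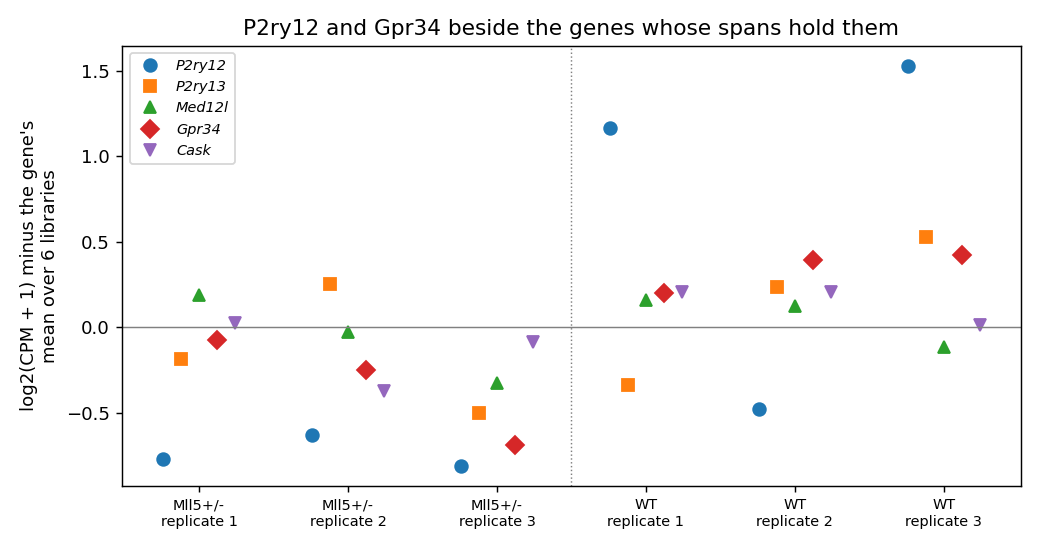
Level of P2ry12, P2ry13 and the gene that spans them, Med12l, and of Gpr34 and the gene that spans it, Cask, as log2(CPM + 1) minus each gene's mean over the 6 libraries (y axis), with the libraries labelled Mll5+/- left of the dotted line and those labelled WT right of it. P2ry12 lies between -0.81 and -0.63 in libraries labelled Mll5+/- and at 1.16, -0.48 and 1.53 in WT replicates 1, 2 and 3, a split that Med12l and Gpr34 do not show.

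P2ry6, the UDP receptor coupled to Gq proteins, had 49.9, 83.0 and 69.9 CPM in libraries labelled Mll5+/- and 54.4, 43.2 and 56.1 CPM in those labelled WT. Its 2 highest libraries were labelled Mll5+/-, and the other Mll5+/- library lay among those labelled WT. The means were 67.6 ± 16.7 and 51.2 ± 6.99 CPM (SD, n = 3 each), with a log2 fold change of 0.40 (SE 0.309, 95% interval -0.30 to 1.10).

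Gpr34 encodes the lysophosphatidylserine receptor and lies on chromosome X from 13498328 to 13507097 (mm39), inside the span of Cask, a gene for a membrane scaffold kinase. It had 897, 793 and 585 CPM in libraries labelled Mll5+/- and 1083, 1241 and 1267 CPM in those labelled WT. The genotypes did not overlap, and Mll5+/- replicate 3 was the lowest library. The ratio of the means was 0.634, at 758 ± 159 and 1197 ± 99.2 CPM (SD, n = 3 each). The log2 fold change was -0.66 (SE 0.189), with a 95% interval from -1.09 to -0.23. With each library left out in turn it ran from -0.81 without Mll5+/- replicate 1 to -0.51 without Mll5+/- replicate 3.

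Cask had 241, 183 and 223 CPM in libraries labelled Mll5+/- and 274, 274 and 239.8 CPM in those labelled WT (log2 fold change -0.28, SE 0.195, edgeR unadjusted p = 0.181, adjusted p = 0.9995). Its exons share 0 bases with those of Gpr34 in GENCODE M21, on the opposite strand. Gpr82, an orphan receptor gene 20.5 kb beyond Gpr34 in the same span, had 28.1, 26.0 and 42.6 CPM in libraries labelled Mll5+/- and 45.2, 18.7 and 17.2 CPM in those labelled WT, so it overlapped between genotypes. P2ry12 counts were 1.24, 1.55 and 1.86 times those of Gpr34 in libraries labelled Mll5+/- and 3.94, 1.10 and 4.34 times in those labelled WT. Relative to Tmem119, Gpr34 counts were 4.03, 3.42 and 2.63 times as many in libraries labelled Mll5+/- and 5.49, 5.62 and 6.21 times as many in those labelled WT. This ratio did not overlap between genotypes, but Tmem119 itself was higher in all 3 libraries labelled Mll5+/- (223, 232 and 222 CPM) than in those labelled WT (197, 221 and 204 CPM), which widens the gap. Relative to Cask, Gpr34 counts were 3.72, 4.33 and 2.62 times as many in libraries labelled Mll5+/- and 3.95, 4.53 and 5.28 times as many in those labelled WT, and this ratio overlapped. Neither ratio depends on how libraries are scaled.

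Entpd1, the ectonucleotidase CD39, lies on chromosome 19 from 40600841 to 40730046 (mm39) and had 544, 451 and 339 CPM in libraries labelled Mll5+/- and 521, 506 and 564 CPM in those labelled WT. The libraries labelled WT were close together, and those labelled Mll5+/- reached from within their range to well below it. The means were 445 ± 103 and 530.3 ± 30.1 CPM (SD, n = 3 each), with a log2 fold change of -0.25 (SE 0.203, 95% interval -0.71 to 0.21). Without Mll5+/- replicate 3 it was -0.10. That library was the lowest of the 6 for Entpd1, Gpr34, P2ry13 and P2ry12. It also had the fewest counts (21075570) and the highest share of mitochondrially encoded counts, 3.55%, against 1.88% to 2.90% in the other libraries, and the part of these in the result was not tested.

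The ATP-gated channels P2rx7 and P2rx4 are neighbours on chromosome 5, with 16.1 kb between their spans (P2rx7 from 122781974 to 122829495, P2rx4 from 122845607 to 122867801, mm39). P2rx7, the low-affinity channel linked to inflammasome activation, had 156, 235 and 256 CPM in libraries labelled Mll5+/- and 173, 206 and 142 CPM in those labelled WT. The genotypes overlapped, with means of 216 ± 52.5 and 174 ± 32.0 CPM (SD, n = 3 each) and a log2 fold change of 0.31 (SE 0.255, 95% interval -0.26 to 0.89). P2rx4, a channel that opens at lower ATP, had 61.6, 28.3 and 91.1 CPM in libraries labelled Mll5+/- and 53.5, 88.9 and 41.9 CPM in those labelled WT. Its highest and its lowest library were both labelled Mll5+/-. The means were 60.3 ± 31.4 and 61.4 ± 24.5 CPM (SD, n = 3 each), with a log2 fold change of -0.03 (SE 0.466, 95% interval -1.08 to 1.03), so changes of up to about 1 on the log2 scale in either direction lay within its error. Without Mll5+/- replicate 2 it was 0.30, and without WT replicate 2 it was 0.32.

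Of the 7 genes, edgeR's quasi-likelihood test, adjusted over all genes, called 0 at a threshold of 0.05, and it called 0% of all 10832 genes tested. DESeq2, run on all listed genes without that filter, called 1 of the 7, P2ry12, as lower, where it called 0.255% of the 11377 genes with an adjusted p (0.158% as lower), and limma-voom called 0. At an unadjusted p under 0.05, edgeR held P2ry12 and Gpr34, both lower, against 2.88% of all genes (1.52% lower). Levels of 2 of the 7 genes lay lower without overlap in libraries labelled Mll5+/-, as did those of 4.64% of all genes. Log2 fold changes were negative for 5 of the 7 genes (median -0.25) and for 48.2% of all genes (median 0.02). Since the genes were chosen with this contrast known, nothing is read from these counts.

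**Figure D3:**
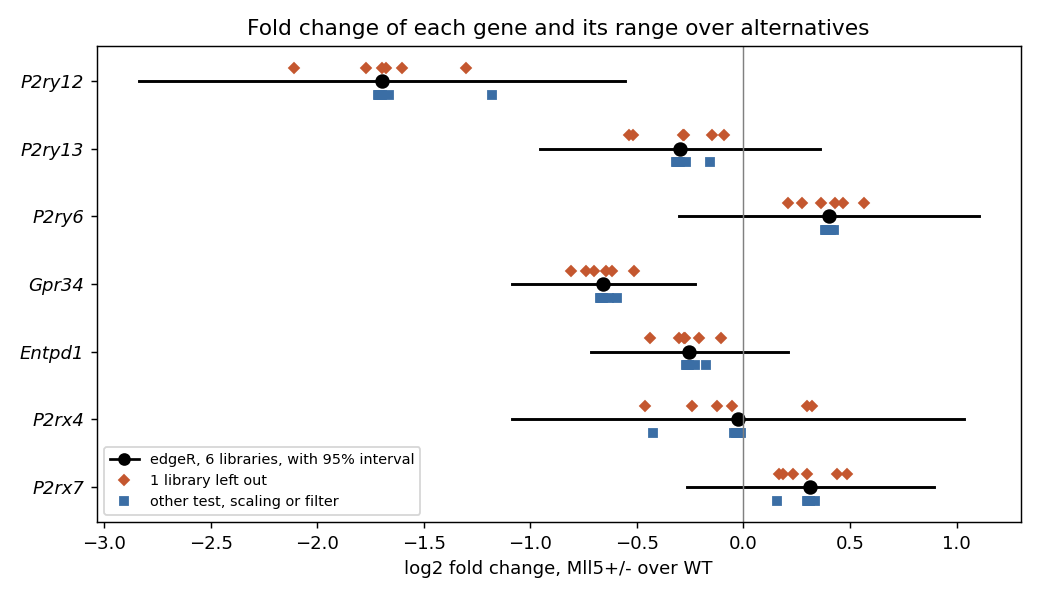
Log2 fold change of each gene, Mll5+/- over WT (x axis), from edgeR with all 6 libraries (black, with its 95% interval), with 1 library left out (orange) and with another test, scaling or filter (blue). P2ry12 and Gpr34 stay below 0 throughout, and P2rx4 lies on both sides of 0 when 1 library is left out.

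Levels of different genes were set side by side per kb of transcript (the longest principal transcript in GENCODE M21). P2ry12 had 476, 526 and 464 CPM per kb in libraries labelled Mll5+/- and 1821, 583 and 2346 CPM per kb in those labelled WT. Gpr34 followed, with 280.1 to 430 CPM per kb in libraries labelled Mll5+/- and 519 to 607 CPM per kb in those labelled WT. P2ry12 was above Gpr34 in every library except WT replicate 2, in which Gpr34 was at 594 CPM per kb and P2ry12 at 583. In the libraries labelled WT, the levels per kb of this pair overlapped.

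Entpd1 was the third in all 6 libraries, with 80.3 to 129 CPM per kb in those labelled Mll5+/- and 120 to 134 CPM per kb in those labelled WT, clear of Gpr34. P2ry13 was the next in all 6, with 52.8 to 89.4 CPM per kb in libraries labelled Mll5+/-, where it overlapped Entpd1, and 59.3 to 108 CPM per kb in those labelled WT, where it did not. The other three had lower levels per kb than P2ry13 in each library. P2rx7 had 31.7 to 51.9 and 28.8 to 41.7 CPM per kb (libraries labelled Mll5+/- and WT), P2ry6 25.6 to 42.7 and 22.2 to 28.8, and P2rx4 10.5 to 33.7 and 15.5 to 32.9. Neighbours in this order, P2rx7 and P2ry6, then P2ry6 and P2rx4, overlapped in both genotypes.

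**Figure D4:**
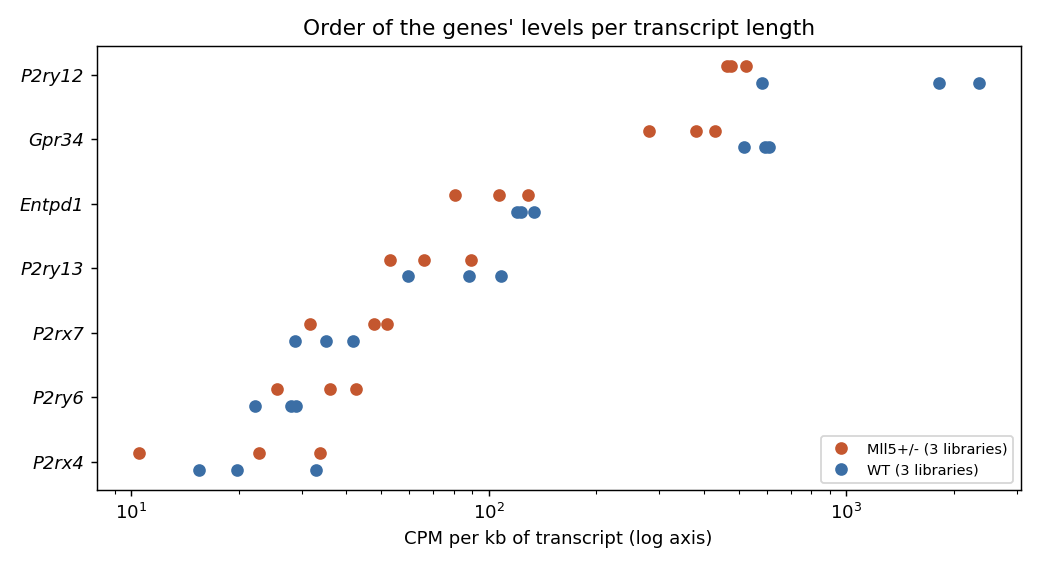
Level of each gene in CPM per kb of transcript (x axis, log scale) in libraries labelled Mll5+/- (orange, upper row of each gene) and WT (blue, lower row), 3 each. P2ry12 and Gpr34 lie above the others in every library, and P2rx7, P2ry6 and P2rx4 overlap at the low end.

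The genes whose pattern over the 6 libraries was most like that of P2ry12 or Gpr34 were found by the root mean square difference of log2(CPM + 1), centred on each gene's mean, among 2937 other genes with a mean of at least 50 CPM. By this measure, which also counts how far a gene moves between libraries, no gene came close to P2ry12. The 3 nearest were Azin1 at 0.60, Idh3g at 0.62 and Mphosph9 at 0.62. Azin1, which encodes an antizyme inhibitor, had 39.7, 22.9 and 67.2 CPM in libraries labelled Mll5+/- and 84.9, 42.6 and 115.5 CPM in those labelled WT. Gpr34 had nearer genes, namely Phf20 at 0.10, Tmed5 at 0.10 and Cdc5l at 0.11. Phf20, a chromatin reader gene, had 183, 173 and 142 CPM in libraries labelled Mll5+/- and 246, 253 and 302 CPM in those labelled WT. Among the other nucleotide genes, Entpd1 was 44th in likeness to Gpr34 at 0.21 and P2ry13 was 311th at 0.32. P2ry12 itself was 2561st, at 0.77. In the other direction, Gpr34 was 99th in likeness to P2ry12 at the same 0.77, Entpd1 329th at 0.85 and P2ry13 623rd at 0.91. The place of a pair thus depended on which gene was the reference. WT replicate 2, far below the other WT libraries for P2ry12, lay between them for Gpr34.

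The rest of the pathway was described from 11 lists with 117 other genes, of which 86 were measured here and 80 passed the low-count filter. edgeR called 0 of the 80 at an adjusted p of 0.05, and limma-voom 0. DESeq2 called 1, Gja1. In edgeR, 2 of the 80 (2.5%) had an unadjusted p under 0.05, Il1b higher and Gja1 lower in libraries labelled Mll5+/-, against 2.88% of all genes. Without overlap between genotypes, 5 of the 80 lay higher and 2 lower, against 4.68% and 4.64% of all genes. The median log2 fold change of the 80 genes was 0.02, as was that of all genes tested.

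Among other receptors, P2ry10b, a relative of the lysophosphatidylserine receptors, was the 1 other P2Y gene measured of 7 listed. It had 88.5 against 97.6 CPM (Mll5+/- against WT, means) and a log2 fold change of -0.14 (SE 0.315). Of the orphan and lysophospholipid receptors near P2Y12, 4 of 8 were tested and 0 passed (edgeR; median 0.15). Gpr183, an oxysterol receptor, had 236 against 229 CPM (log2 fold change 0.04, SE 0.189). Gpr65, a proton-sensing receptor, had 10.7, 0 and 25.5 CPM in libraries labelled Mll5+/- and 1.34, 0 and 0 CPM in those labelled WT. Of the other P2X channels, 3 of 5 were tested and 0 passed (median 0.16). P2rx1 had 87.2 against 77.9 CPM (log2 fold change 0.16, SE 0.274), and P2rx3 and P2rx5 were at no more than 5.55 CPM in any library. Adora3, the 1 adenosine receptor tested of 4 listed, had 31.9, 27.3 and 25.5 CPM in libraries labelled Mll5+/- and 13.6, 24.6 and 14.7 CPM in those labelled WT. Its genotypes did not overlap, with edgeR giving 0.68 on the log2 scale (SE 0.427, unadjusted p = 0.146, adjusted p = 0.9995).

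Other enzymes that cut nucleotides outside cells or in the secretory pathway had positive log2 fold changes in 7 of 8 tested genes, against 51.8% of all genes, and 0 passed (edgeR; median 0.32). Entpd4 and Entpd4b, paralogs named after their values were seen, had the same counts within 1 read in every library. With this pair counted once, 6 of 7 were positive (median 0.33). Enpp2 and Entpd5, also named after their values were seen, were positive in edgeR (0.88, SE 1.95, and 0.33, SE 1.97). In limma-voom they were negative (-1.75 and -0.60), while the other positive genes stayed positive. Enpp2 had 0.473, 13.1 and 191 CPM in libraries labelled Mll5+/- and 14.1, 12.4 and 84.9 CPM in those labelled WT. Entpd6 had 35.7, 40.0 and 39.9 CPM in libraries labelled Mll5+/- and 20.2, 31.7 and 26.7 CPM in those labelled WT, without overlap (log2 fold change 0.56, SE 0.352, edgeR unadjusted p = 0.149, adjusted p = 0.9995). Entpd7, the most abundant of them, had 215 against 173 CPM (log2 fold change 0.31, SE 0.279), and Enpp1 had 8.56 against 12.6 CPM (-0.56, SE 0.595). Of the genes that take up or convert adenosine, 6 of 9 were tested, with 0 passing (median 0.00). Slc29a3, a nucleoside transporter of lysosomes, had 385 against 370 CPM (log2 fold change 0.06, SE 0.225), and Pnp, purine nucleoside phosphorylase, had 133 against 146 CPM (-0.14, SE 0.271). Adal and Ada, a pair of deaminase genes, were at no more than 8.04 CPM in any library.

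Among 6 tested genes of nucleotide release (median -0.11), Gja1, which encodes the gap junction and hemichannel protein connexin 43, had 3.51, 6.71 and 1.75 CPM in libraries labelled Mll5+/- and 22.7, 23.2 and 28.6 CPM in those labelled WT. The genotypes did not overlap. Its difference was -2.64 on the log2 scale (SE 0.631), with an adjusted p of 0.9995 in edgeR (unadjusted p = 0.0025) and 0.0343 in DESeq2. Gja1 is best known from astrocytes, whose other markers, 8 of 11 measured here, summed to 265 to 553 CPM in libraries labelled Mll5+/- and 380 to 548 CPM in those labelled WT, with Gfap among those not analysed here and Slc1a3 making up most of the sum. Log2 fold changes were positive for 4 of the 8 and negative for 4 (median -0.05). Slc1a2, the most abundant after Slc1a3, had 51.4 against 38.3 CPM (Mll5+/- against WT, means). A pair of the 8 were lower without overlap, as were 4.64% of all genes. Plpp3 had 3.39, 4.39 and 5.62 CPM in libraries labelled Mll5+/- and 15.5, 11.5 and 23.0 CPM in those labelled WT (log2 fold change -1.90, SE 0.612, edgeR unadjusted p = 0.0131, adjusted p = 0.9995), and Clu, named after its values were seen, had 0, 0 and 1.13 CPM against 3.85, 3.77 and 2.01 CPM. The part of astrocyte RNA in this difference was not tested. Panx1, the ATP-releasing pannexin channel, had 5.40 against 1.80 CPM (log2 fold change 1.58, SE 1.23), and Abcc4, a nucleotide exporter, had 2.64 against 4.52 CPM (-0.77, SE 1.64). Lrrc8a, a subunit of the volume-regulated anion channel, was at 1869, 0.176 and 1835 CPM in libraries labelled Mll5+/- and 1.80, 1959 and 2061 CPM in those labelled WT. It was thus close to 0 in 1 library of each genotype, Mll5+/- replicate 2 and WT replicate 1, a split larger than that of P2ry12. For P2ry12, WT replicate 1 was instead a high library. Nek7, a gene downstream of the P2X channels named after its values were seen, was lowest in the same libraries as Lrrc8a. It had 424, 103 and 610 CPM in libraries labelled Mll5+/- and 110, 504 and 525 CPM in those labelled WT.

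**Figure D5:**
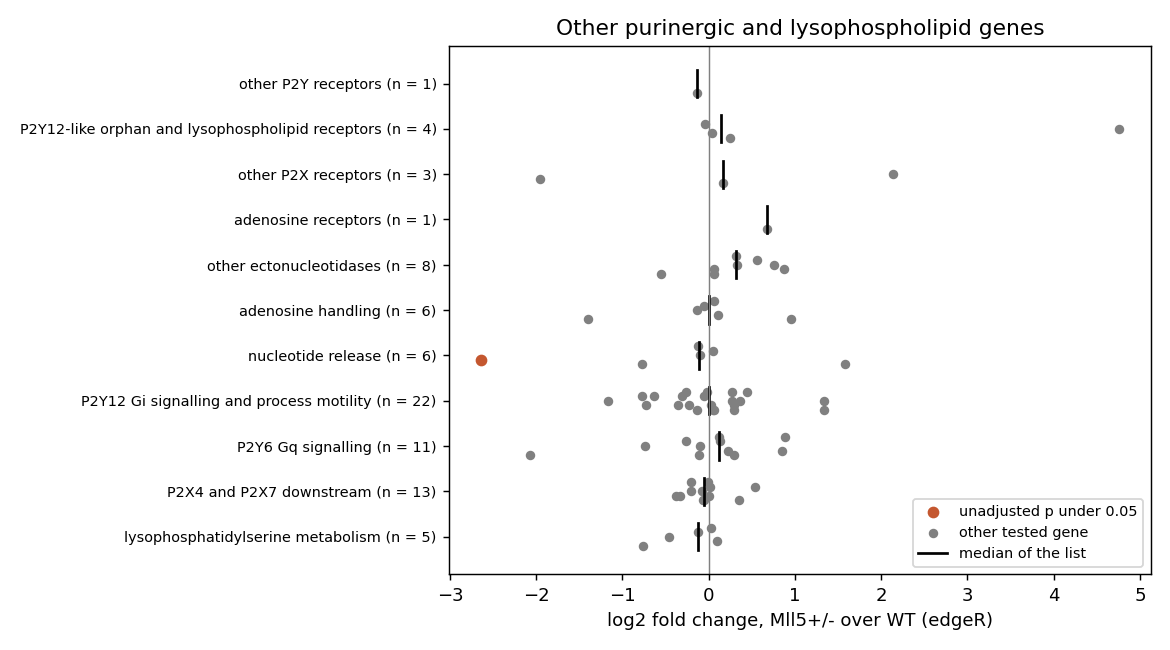
Log2 fold change, Mll5+/- over WT (x axis, edgeR), of the tested genes of 11 lists around the 7 genes, with the number tested behind each list's name. Black lines are medians, and orange marks an unadjusted p under 0.05, which of the genes drawn only Gja1 has; Il1b, at 0 in all libraries labelled WT, is left out of the points and kept in the median.

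Downstream of P2Y12, 22 genes of Gi proteins, their effectors and process motility were tested and 0 passed (edgeR), with 11 fold changes on either side of 0 and a median of 0.00. Grk2, a receptor kinase, had 19.2, 20.3 and 46.9 CPM in libraries labelled Mll5+/- and 15.7, 4.46 and 13.9 CPM in those labelled WT, without overlap (log2 fold change 1.34, SE 0.621, edgeR unadjusted p = 0.0599, adjusted p = 0.9995). Rap1b, a small GTPase of adhesion, had 593 against 493 CPM (log2 fold change 0.27, SE 0.178). Gng10, a G protein gamma subunit, had 39.4 against 88.7 CPM (log2 fold change -1.17, SE 0.793), with 4.96 CPM in Mll5+/- replicate 3. Downstream of P2Y6, 11 Gq and phospholipase C pathway genes were tested and 0 passed (median 0.12). Gnaq, the Gq alpha subunit, had 1282 against 1387 CPM (log2 fold change -0.11, SE 0.184), and Gna15, another subunit of this class, 58.1 against 97.2 CPM (-0.74, SE 0.394). Plcb3, a phospholipase C, had 34.4 against 18.6 CPM (log2 fold change 0.89, SE 0.620), and Plcb4, of the same family, was at no more than 7.16 CPM in any library.

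Of 13 tested genes downstream of the P2X channels, 0 passed (edgeR; median -0.05). Il1b, the cytokine gene whose product is released after P2X7 opens, had 0.671, 2.14 and 0.945 CPM in libraries labelled Mll5+/- and 0 counts in all 3 labelled WT (edgeR unadjusted p = 0.0223, adjusted p = 0.9995). Pycard, the inflammasome adaptor ASC, had 305, 327 and 312 CPM in libraries labelled Mll5+/- and 394, 469 and 329 CPM in those labelled WT, without overlap (log2 fold change -0.34, SE 0.188, edgeR unadjusted p = 0.109, adjusted p = 0.9995). Irf8, a transcription factor that controls P2rx4 in microglia, had 887 against 895 CPM (log2 fold change -0.01, SE 0.214). Mapk14, the kinase p38 alpha, had 73.3 against 50.6 CPM (log2 fold change 0.54, SE 0.394). Of the enzymes of lysophosphatidylserine metabolism, 5 of 7 were tested and 0 passed (median -0.13). Abhd12, a lipase that breaks down the ligand of GPR34, had 191 against 179 CPM (log2 fold change 0.10, SE 0.223), and Abhd6, another lipase, had 109 against 149 CPM (-0.45, SE 0.268). Abhd16a, which makes the ligand, had 8.57 against 14.6 CPM (log2 fold change -0.76, SE 0.755), and Lpcat3, an acyltransferase, had 81.6 against 89.2 CPM (-0.13, SE 0.237).

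P2ry12 is also the ADP receptor of platelets, so platelet and erythrocyte markers were looked at beside it. Of 12, 3 were measured here, and they summed to 9.97 to 24.5 CPM in libraries labelled Mll5+/- and to 11.7 to 19.4 CPM in those labelled WT. Most of this was Itgb3, and the defining platelet genes Gp9 and Gp1ba were at no more than 5.8 CPM in any library. In WT replicates 1, 2 and 3 the sum was 11.7, 15.5 and 19.4 CPM. Neuron markers (5 of 12 measured) summed to 175 to 186 CPM and 184 to 246 CPM, monocyte and neutrophil markers (4 of 10) to 222 to 278 and 196 to 256 CPM, and oligodendrocyte markers (6 of 11) to 98.2 to 135 and 140.3 to 185 CPM, the last without overlap and each with the range in libraries labelled Mll5+/- before that in libraries labelled WT. In the same order of genotypes, the neuron sums without Rtn1 were 39.7 to 62.6 and 40.6 to 69.2 CPM. The monocyte and neutrophil sums without Csf3r were 10.1 to 43.1 and 9.54 to 43.0 CPM. Without Cnp the oligodendrocyte sums overlapped, at 43.0 to 48.3 and 35.3 to 143 CPM. Endothelial and mural markers (5 of 9) summed to at most 23.3 CPM in libraries labelled Mll5+/- and at most 30.9 CPM in those labelled WT, and Il7r, the 1 lymphocyte marker measured of 8, was at 129 to 207 CPM against 158 to 233 CPM. Genes induced by tissue dissociation (11 of 13) summed to 108 to 142 CPM in libraries labelled Mll5+/- and 80.1 to 143 CPM in those labelled WT. The part of these in the levels of P2ry12 and Gpr34 was not tested.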

How the data were processed

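The authors deposited a table with 1 column of counts for each of 6 mice, 1 row per gene symbol and coordinates on mm39. The libraries were built from amplified cDNA, per the labels' protocols. FastQC, STAR, StringTie and DESeq2 are named in the submitters' processing notes. Tool versions, the way reads were counted and the strand used were not given in the sources used here.

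Libraries were grouped by labelled genotype. The low-count filter was filterByExpr (minimum count 10, minimum total 15), with TMM scaling. Mll5+/- minus WT was fitted with edgeR 4.0.16 (quasi-likelihood, robust; limma 3.58.1, R 4.3.3) and adjusted by Benjamini-Hochberg over 10832 genes at 0.05, two-sided. SEs and intervals come from the coefficient and its F statistic. The code was tested on simulated counts with known changes. It was required to recover them only at dispersions far below those of these data, so this does not show which changes could be called here. Alternatives were DESeq2 1.42.0 on all listed genes, limma-voom with sample weights, other scalings, filters, thresholds and leaving out each library; DESeq2 on the filtered genes was added after seeing the data. P-values set the difference between genotypes against the spread between libraries of the same genotype, with information on spread shared across genes. For each gene, edgeR takes this spread, relative to the level, as the same in both genotypes. Because reads were amplified and carry no molecular identifiers, floors cover counting error only. The 7 genes and all lists were chosen with earlier results of these data known. Named from each list were up to 3 genes of smallest p and the most abundant 1 (for markers, the sums and the genes that make up most of them or define a cell type), and the genes that overlap or adjoin P2ry12 and Gpr34. Transcript lengths, strands and exon overlap come from GENCODE M21 (GRCm38).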

Additional observations from a re-analysis of the deposited data

How the results depend on the processing

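Over 15 alternatives for each of the 7 genes, 100 of 105 log2 fold changes kept their direction and their side of the adjusted threshold. The exceptions were P2ry12, past the threshold in DESeq2 on all listed genes and on the filtered genes (-1.71 in both) and without WT replicate 2 (-2.11), and P2rx4, whose sign turned without Mll5+/- replicate 2 (0.30) and without WT replicate 2 (0.32). The cause was not tested. With 1 library left out, P2ry12 ran from -2.11 to -1.30, P2ry13 from -0.54 to -0.09, P2ry6 from 0.21 to 0.56, Gpr34 from -0.81 to -0.51, Entpd1 from -0.44 to -0.10, P2rx4 from -0.46 to 0.32 and P2rx7 from 0.17 to 0.49. With another test, scaling or filter, P2ry12 ran from -1.72 to -1.18 and P2rx4 from -0.43 to -0.01. The -1.18 of P2ry12, its smallest change under any alternative, and the -0.43 of P2rx4 came from limma-voom with sample weights. The number of the 7 genes called was 1 in both DESeq2 fits and 0 to 1 with 1 library left out. The number of all genes called, 0 in edgeR with all libraries (312 at an unadjusted p under 0.05), was 29 in DESeq2 on all listed genes, 18 in DESeq2 on the filtered genes (a fit chosen after seeing the data), 0 in edgeR without the low-count filter, 0 in limma-voom with sample weights and 0 to 2 with 1 library left out. Of the other purinergic genes, both DESeq2 fits called 1 and the left-out fits called 0. No paired analysis was possible because the mouse numbers in the labels do not repeat between genotypes. The biological coefficient of variation was 80.4%, and the median SE of a log2 fold change over all genes was 0.63, which with 3 libraries per genotype limits what can be called.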
